A study of Mus musculus with 2 samples.

Results

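The genes described here mark microglia of the undisturbed brain: P2ry12, Tmem119, P2ry13, Gpr34, Sall1, Selplg, Olfml3 and Fcrls. They were chosen by symbol, and 7 of the 8 were found among the 19070 genes of the deposited tables, while Olfml3 was not analysed here. Counts came from Visium HD, in which gene-specific probes bound to the RNA of a tissue slice are captured on a barcoded grid and counted as unique molecular identifiers (UMIs), here in square bins of 16 µm. The 2 coronal brain sections, fixed by perfusion and embedded in paraffin, came from male C57Bl6 mice aged 3 months, 1 taken 3 days and 1 taken 28 days after controlled cortical impact (CCI), in which a piston strikes the exposed parietal cortex on a single side. The labels name no transgene and no treatment besides the injury, which was given under anaesthesia and analgesia, and no sham or uninjured section was analysed here. The opposite side of each section therefore served as the reference. With 1 section per time point, the time point, the animal and the section cannot be told apart and no comparison was tested against the spread between animals. All intervals given are 95% intervals that cover counting error only.

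Microglia are the resident macrophages of the brain. In healthy tissue they survey their surroundings with fine processes, sense nucleotides released from damaged cells through purinergic receptors, and keep a gene signature that depends on TGF-beta signalling and on the transcription factor Sall1. After injury they are known to withdraw their processes and to lower this signature while genes of phagocytosis and lipid handling become more active, and monocytes from the blood enter the damaged tissue and become macrophages beside them.

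After bins under 100 UMIs were left out, the section of 3 days kept 119617 bins and that of 28 days 103316, with a median before this step of 836 and 596 UMIs. Tissue below array column 130 (3 days) or 240 (28 days) was taken as the injured side, which held 39116 and 49478 bins, against 80501 and 53838 on the opposite side. At 3 days the array captured only 2.08 mm of the injured side, against 3.84 mm at 28 days. A damaged area was placed from Cd68 and Lyz2, a pair of phagocyte genes: a bin belonged to it if the share of these UMIs in the 5 by 5 bins around it was as high as in the top 0.5% of opposite-side bins, and only patches of 100 or more such adjoining bins were kept. It measured 0.712 mm2 at 3 days and 1.85 mm2 at 28 days, and at 3 days 46 of its 2780 bins lay on the edge of the array, so that part of it was not captured. Depth was lower in the area, with 561 and 565 UMIs per bin, than on the opposite side, with 1030 and 839. Levels are given as CPM, in which the UMIs of a gene are scaled to the same total (1000000 UMIs) in each place, and comparisons as log2 ratios of CPM. Snap25, a defining gene of neurons, was at 3735 and 4101 CPM on the opposite side, while 9 genes of other organs had a median of 0.0482 and 0.0664 CPM there and a maximum of 0.543 CPM (Krt1), and each homeostatic gene was above 7 CPM. Levels of different genes are not compared, because each rests on its own probes.

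In the mm10 genome P2ry12 (chr3:59216272-59262871) and P2ry13 (chr3:59207892-59210882), both on the minus strand, are neighbours 5.389 kb apart inside Med12l, which is annotated on the opposite strand. Tmem119 (chr5:113793729-113800516) and Selplg (chr5:113818536-113832644), again on the minus strand, lie 18.019 kb apart. Fcrls (chr3:87250758-87263738, minus strand), Sall1 (chr8:89027235-89044162, minus strand) and Gpr34 (chrX:13632089-13640858, plus strand, inside Cask on the other strand) stand alone. The bases before a start of transcription annotated by RefSeq are shown for P2ry13 and Fcrls, a receptor gene and the gene that stood apart in the results, because both windows hold GAGGAA, the core bound by PU.1, the product of Spi1 and a factor that microglia require. The sequences come from RefSeq on GRCm38.p6, read 5′ to 3′ on the minus strand, with GAGGAA in capitals.
P2ry13, chr3:59210883-59211132: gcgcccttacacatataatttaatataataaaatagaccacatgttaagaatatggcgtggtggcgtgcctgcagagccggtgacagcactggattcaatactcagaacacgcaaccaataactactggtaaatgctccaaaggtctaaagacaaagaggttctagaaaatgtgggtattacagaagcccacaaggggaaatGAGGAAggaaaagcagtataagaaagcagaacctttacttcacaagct
Fcrls, chr3:87263600-87263677: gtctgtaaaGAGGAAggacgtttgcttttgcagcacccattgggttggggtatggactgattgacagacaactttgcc
The P2ry13 stretch is the whole window of 250 bases, with the motif 48 bases before the start. The start used for Fcrls lies inside the span of the gene given above, so its stretch is within the gene, in the part of the window between annotated exons, with the motif 144 bases before that start. Searched on both strands, GAGGAA occurred in 23.3% of 32851 such windows of all genes, so a match is common and is a description only. The composite element of PU.1 with an interferon regulatory factor occurred in 2.30% of them and in neither stretch shown. The 3 windows of Sall1 held neither motif, and the P2ry12 window lies wholly in exons of Med12l and is not shown. Of the 7 genes 4 had an entry, and Tmem119, Gpr34 and Selplg did not.

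**Figure D1:**
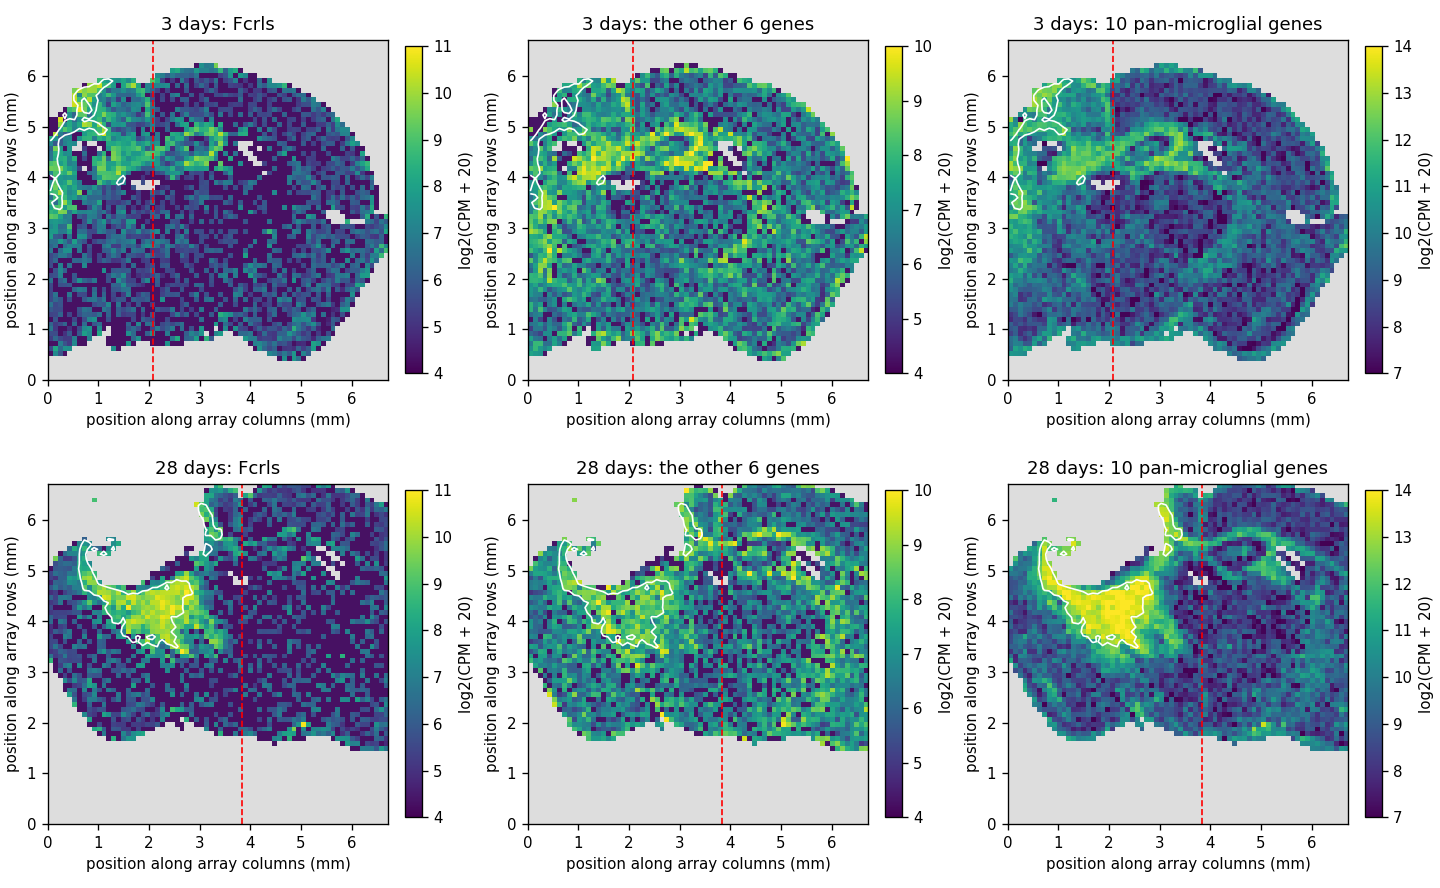
Maps of Fcrls (left), the other 6 genes summed (middle) and 10 pan-microglial genes summed (right) in the sections of 3 days (top) and 28 days (bottom). Colour is log2(CPM + 20) in tiles of 96 µm, axes are positions on the array in mm, the dashed red line is the boundary with the injured side to its left, and the white line encloses the Cd68 and Lyz2 rich area. Fcrls and the pan-microglial genes are bright in the area at 28 days, the other genes less so, and at 3 days all 3 maps are also bright along the dorsal hippocampus across the boundary.

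All 7 genes were higher on the injured side than on the opposite side in both sections, by less than 2-fold except for Fcrls. Their median log2 ratio was 0.66 at 3 days and 0.58 at 28 days, where the median over all genes was 0.14 and 0.04. Every interval lay above 0, as did that of 48.1% of all genes at 3 days and 31.4% at 28 days. Fcrls was the 1 gene of 7 that was at least 2-fold higher in either section, which 10.5% of 16164 genes were at 3 days and 6.43% of 15640 genes at 28 days. In tissue, a lower level can come from fewer cells of a type or from less RNA per cell, and a higher one from more of either; these cannot be told apart here.

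Among the receptors, P2ry12, through which microglia sense ADP, was at 14.4 CPM on the opposite side and 18.7 CPM on the injured side at 3 days (log2 ratio 0.37, 0.24 to 0.51). At 28 days its levels were 15.7 and 19.7 CPM (0.32, 0.17 to 0.47). The excess of P2ry12 was therefore about the same in both sections. P2ry13, a related ADP receptor, had the same ratio at 3 days, with 9.53 CPM on the opposite and 12.3 CPM on the injured side (0.37, 0.20 to 0.54). At 28 days it had 9.08 and 13.6 CPM (0.58, 0.39 to 0.77), and the interval of the difference between the sections held 0 (0.21, -0.048 to 0.46). Gpr34, a receptor for lysophosphatidylserine, had 12.4 and 20.4 CPM at 3 days (0.72, 0.58 to 0.85) and 12.4 and 20.3 CPM at 28 days (0.71, 0.55 to 0.87). Of the 3 receptors, Gpr34 had the highest ratio in each section, with an interval that overlapped that of P2ry13 at 28 days.

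Of the surface molecules, Tmem119, a transmembrane protein used to tell microglia from other macrophages, was at 17.4 CPM on the opposite and 27.6 CPM on the injured side at 3 days (0.67, 0.55 to 0.78), and at 13.9 and 21.7 CPM at 28 days (0.64, 0.49 to 0.79). Selplg encodes PSGL-1, the ligand of selectins, which blood leukocytes carry too. It was at 7.65 and 12.1 CPM at 3 days (0.66, 0.49 to 0.84) and at 8.15 and 10.7 CPM at 28 days (0.40, 0.19 to 0.61). Fcrls, an Fc receptor-like molecule, was at 38.3 and 101 CPM at 3 days (1.40, 1.33 to 1.47) and at 25.6 and 139 CPM at 28 days (2.44, 2.35 to 2.53), which is 2.64-fold and 5.43-fold higher on the injured side. From the section of 3 days to that of 28 days its opposite-side level was lower and its injured-side level higher.

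Sall1, the zinc finger factor that keeps microglial identity and that some neural cells also make, was at 28.1 and 38.9 CPM at 3 days (0.47, 0.37 to 0.56) and at 28.0 and 34.5 CPM at 28 days (0.30, 0.19 to 0.41). These ratios rest on which regions each side of the array held. With the opposite side weighted to the regional makeup of the injured side, the Sall1 ratio was -0.05 at 3 days and 0.12 at 28 days, and that of P2ry13 at 3 days was 0.17, whereas Fcrls kept 1.26 and 2.33. At 28 days a reference that began 100 bins beyond the boundary, chosen after seeing the data, lowered the median to 0.33.

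Leaving the damaged area out changed little at 3 days and much at 28 days. At 3 days the 7 ratios outside the area had a median of 0.60, every interval lay above 0 (47.4% of all genes), and 1 gene, Fcrls at 1.15, was 2-fold higher (8.91% of all genes). At 28 days the median was 0.18, and the intervals of P2ry12 (0.18), Tmem119 (0.38), Gpr34 (0.22) and Fcrls (1.44) lay above 0 (27.9% of all genes), while P2ry13 (0.12, -0.09 to 0.33), Sall1 (0.01, -0.11 to 0.14) and Selplg (0.01, -0.22 to 0.24) were not detectably different. Again 1 of 7 was 2-fold higher, against 2.67% of all genes.

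**Figure D2:**
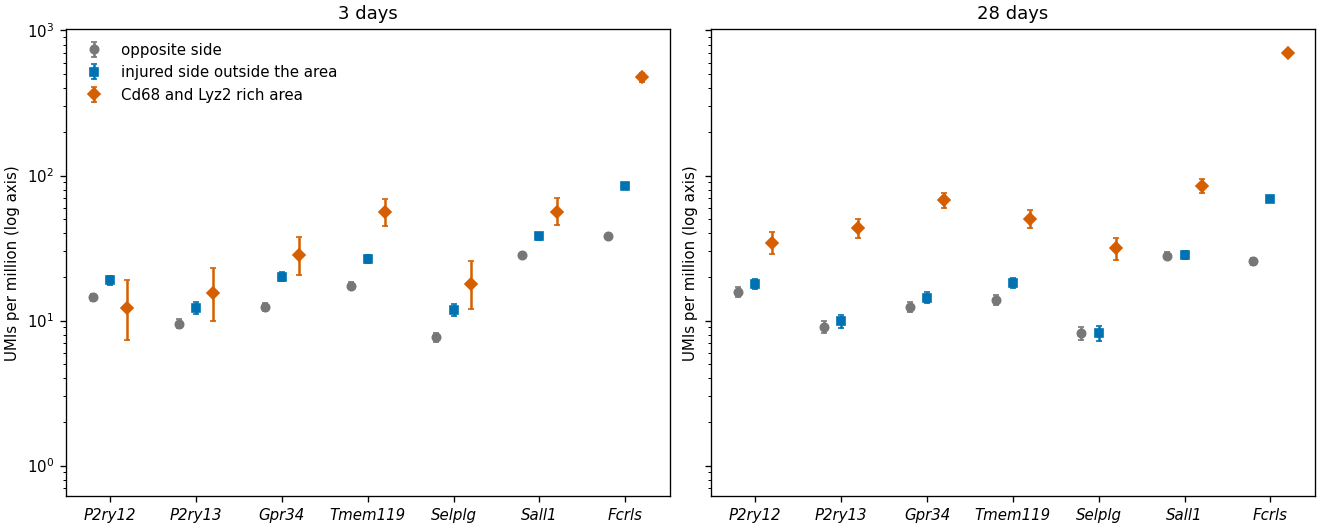
Level of each gene in CPM on a log axis, on the opposite side (grey circles), on the injured side outside the area (blue squares) and in the Cd68 and Lyz2 rich area (orange diamonds), with exact Poisson 95% intervals as bars. In the area Fcrls reached 476 CPM at 3 days and 704 CPM at 28 days, while P2ry12 at 3 days, at 12.2 CPM, was the gene whose area value lay below its opposite-side value.

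Inside the damaged area the genes parted. Fcrls was at 476 CPM at 3 days and 704 CPM at 28 days, a log2 ratio to the opposite side of 3.64 (3.52 to 3.75) and 4.78 (4.68 to 4.88), or 12.5-fold and 27.5-fold. P2ry12 was at 12.2 CPM at 3 days, from 19 UMIs, which was not detectably different from the opposite side (-0.21, -0.98 to 0.41), and at 34.4 CPM at 28 days (1.13, 0.86 to 1.39). Because phagocyte genes placed the area, other genes of phagocytes had to be high there, and these values are a description.

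The remaining genes lay between these. At 3 days P2ry13 was at 15.4 CPM (0.72, 0.04 to 1.28), Gpr34 at 28.2 CPM (1.20, 0.71 to 1.62), Sall1 at 56.4 CPM (1.01, 0.68 to 1.31), Selplg at 18 CPM (1.26, 0.63 to 1.78) and Tmem119 at 55.8 CPM (1.69, 1.35 to 1.99). At 28 days P2ry13 was at 43.4 CPM (2.26, 2.00 to 2.52), Gpr34 at 67.7 CPM (2.45, 2.24 to 2.66), Sall1 at 84.9 CPM (1.60, 1.43 to 1.78), Selplg at 31.4 CPM (1.95, 1.65 to 2.24) and Tmem119 at 50.3 CPM (1.86, 1.62 to 2.08). At 3 days 5 of 7 genes were at least 2-fold higher, with a median of 1.20, where 23.5% of 15228 genes were 2-fold higher and their median was 0.14. At 28 days all 7 were, with a median of 1.95, where 20.1% of 14723 genes were and their median was -0.03.

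At 3 days these directions depended on the scale, since a bin of the area held fewer UMIs of all genes, as given above. Counted as UMIs per bin, the ratio of P2ry12 was -1.08 and that of P2ry13 -0.16, those of Sall1, Gpr34 and Selplg were 0.14, 0.32 and 0.38, and only Fcrls (2.76) was still 2-fold higher, beside Tmem119 at 0.81. Against an opposite side weighted to the regions of the area, P2ry12 was at -0.74, Sall1 at -0.053 and P2ry13 at -0.041. At 28 days all 7 genes kept a ratio above 0 on both scales, from 0.56 (P2ry12) to 4.21 (Fcrls) per bin and from 0.51 (Sall1) to 4.28 (Fcrls) by region. The share of all genes above 0 on these scales is not given, and phagocyte genes placed the area, so this count is a description.

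The area consisted of 2 patches at 3 days and 3 at 28 days, and the larger patch held most of it, with 2670 and 6480 bins. In the larger patch of 28 days Fcrls was at 739 CPM, and in the other 2 patches, of 586 and 150 bins, at 475 and 170 CPM. The other 6 genes summed were at 310, 321 and 382 CPM in these patches. Fcrls therefore differed between the patches of 1 section while the sum of the others did not beyond counting error.

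Away from the area the excess faded over a longer distance at 3 days than at 28 days. At 3 days the median log2 ratio of the 7 genes was 0.85 within 100 µm of the area, 1.12 at 100 to 250 µm, 0.99 at 250 to 500 µm and 0.82 at 500 to 1000 µm, and then 0.18 at 1000 to 2000 µm and -0.24 beyond 2000 µm. At 28 days it was 1.28, 0.64, 0.20, -0.35 and -0.10 in the same order, and no value is given beyond 2000 µm, where 78 bins lay. The number at least 2-fold higher was 2, 4, 3 and 1 of 7 in the first 4 bands at 3 days, beside 19.3%, 17.4%, 15.8% and 4.86% of all genes, and 6, 3, 1 and 0 of 7 at 28 days, beside 10.9%, 7.16%, 4.95% and 1.39%. Farther out it was 0 of 7 in each band, beside 3.8% and 7.53% of all genes at 3 days and 2.74% at 28 days. At 3 days the array edge cut the area, so distances are from its captured part. The medians at 100 to 250 µm also depended on how the area was placed. All these values depended on the scale. Per bin, the middle gene within 100 µm was Selplg at 0.36 at 3 days and Tmem119 at 0.60 at 28 days. Per bin at 28 days, only Fcrls was at least 2-fold higher within 100 µm (2.76) and at 100 to 250 µm (2.11). Against the region-weighted opposite side the middle gene at 3 days was Selplg, at 0.28 within 100 µm and 0.51 at 500 to 1000 µm.

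**Figure D3:**
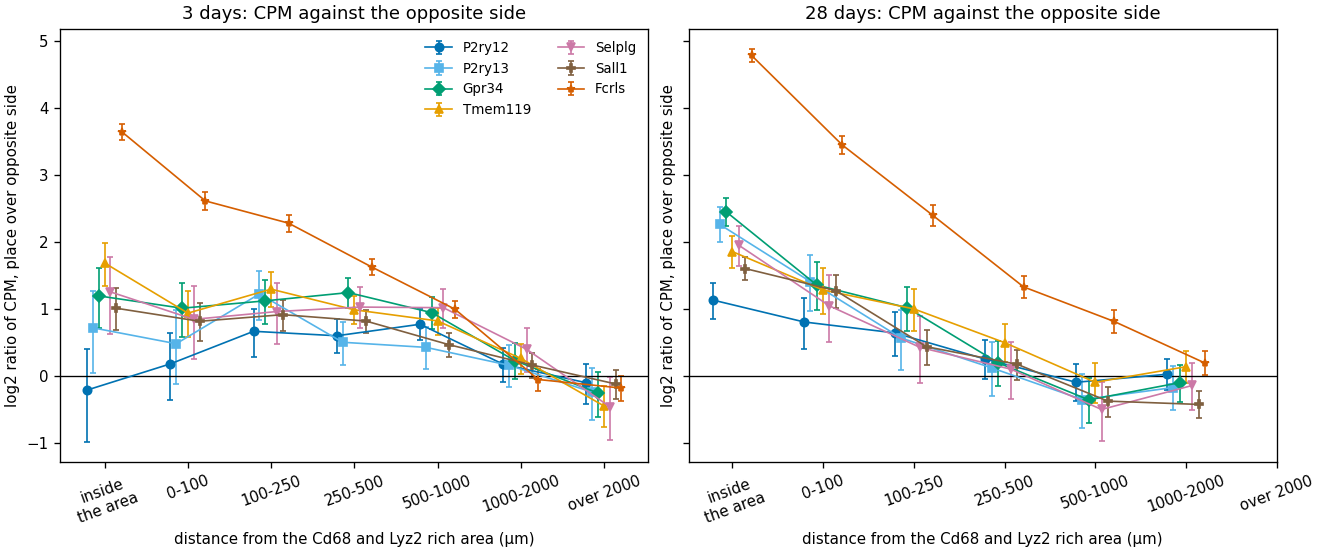
Log2 ratio of CPM over the opposite side for each gene inside the area and in bands of distance from it in µm, at 3 days (left) and 28 days (right), with exact 95% intervals as bars and a line at 0. Fcrls declines from 3.64 and 4.78, and at 500 to 1000 µm the other 6 genes lie between 0.43 and 1.02 at 3 days and between -0.50 and -0.09 at 28 days.

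Fcrls declined at each step outwards, from 2.61 (2.48 to 2.74) within 100 µm to 2.28, 1.63, 1.0 and -0.05 at 3 days, and from 3.45 (3.31 to 3.59) to 2.40, 1.33, 0.81 and 0.20 at 28 days. P2ry12 at 3 days ran otherwise. It was at -0.21 in the area, 0.18 (-0.35 to 0.64) within 100 µm, 0.67 and 0.60 in the next bands and 0.77 (0.54 to 1.0) at 500 to 1000 µm. At 28 days P2ry12 declined outwards, from 0.81 within 100 µm to 0.64, 0.25, -0.09 and 0.03. At 3 days the value at 500 to 1000 µm had an interval that overlapped those of the nearer bands and not that of the area, and with the opposite side weighted by region the order changed, with 0.72 at 100 to 250 µm, 0.69 at 250 to 500 µm and 0.57 at 500 to 1000 µm. At 28 days the highest value of P2ry12 lay in the area, overlapping those within 250 µm.

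Gpr34 and Selplg differed most between the sections at 500 to 1000 µm. Gpr34 had a ratio of 0.95 (0.71 to 1.17) there at 3 days and -0.35 (-0.71 to -0.03) at 28 days, and Selplg 1.02 (0.72 to 1.30) and -0.50 (-0.96 to -0.08). Sall1 was at 0.47 (0.28 to 0.64) and -0.37 (-0.60 to -0.16). Weighted to the regions of this band, the 3 days ratios were 0.74 for Gpr34, 0.51 for Selplg, 0.03 for P2ry13 and -0.21 for Sall1, so the last one turned its direction. At 28 days these ratios were -0.30, -0.43, -0.26 and -0.32. The opposite side was itself not uniform at 28 days. Gpr34 was at 9.65 CPM and Sall1 at 21.6 CPM in this band. Both were above the 8.48 and 19.6 CPM of the opposite side within 500 µm of the boundary. Selplg, at 5.73 CPM, was below the 7.64 CPM found there.

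To set the homeostatic genes against other genes of the same cells, their UMIs were divided by those of 10 pan-microglial genes. Among these were the growth factor receptor Csf1r, the complement genes C1qa, C1qb and C1qc, the protease Ctss, the adaptors Tyrobp and Fcer1g, and Aif1, which encodes IBA1. Macrophages from the blood make them too. Their sum was at 540 and 483 CPM on the opposite side, and in the area at 4295 and 11152 CPM, a log2 ratio of 2.99 (2.95 to 3.03) and 4.53 (4.51 to 4.55).

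Per pan-microglial UMI, 6 of the 7 genes were lower in the area than on the opposite side and Fcrls was higher, in both sections. Phagocyte genes placed the area, so the divisor had to be high there, and these values are a description. Any gene with a CPM ratio below that of the divisor is lower on this scale. Of all genes, 23.5% at 3 days and 20.1% at 28 days were at least 2-fold higher in CPM, so being lower per pan-microglial UMI is common. P2ry12 was the lowest, at 0.284 per 100 pan-microglial UMIs in the area against 2.67 on the opposite side at 3 days (log2 -3.20, -3.85 to -2.54) and at 0.308 against 3.25 at 28 days (-3.40, -3.66 to -3.13). At 3 days its interval overlapped that of P2ry13. P2ry13 was at -2.27 in each section, with intervals of -2.86 to -1.68 and -2.52 to -2.01. Gpr34 was at -1.79 (-2.23 to -1.36) and -2.08 (-2.29 to -1.87).

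Sall1 was at -1.98 (-2.29 to -1.67) at 3 days and -2.92 (-3.10 to -2.75) at 28 days. Selplg was at -1.73 (-2.28 to -1.19) and -2.58 (-2.87 to -2.29), and Tmem119 at -1.30 (-1.62 to -0.99) and -2.67 (-2.90 to -2.44). For these 3 genes the interval of the difference between the sections lay below 0, at -0.95 (-1.30 to -0.59), -0.84 (-1.46 to -0.22) and -1.37 (-1.76 to -0.98), and for P2ry12 (-0.20, -0.90 to 0.51), P2ry13 and Gpr34 (-0.28, -0.77 to 0.20) it held 0. Fcrls was at 11.1 per 100 pan-microglial UMIs in the area against 7.08 on the opposite side at 3 days (0.65, 0.53 to 0.77), and at 28 days the values were 6.32 and 5.30 (0.25, 0.15 to 0.35), with a difference between the sections of -0.40 (-0.55 to -0.24). Within the area the excess was that of the larger patch, with 11.3 and 6.44. In the smaller patch of 3 days Fcrls was at 4.52, from 10 UMIs, and in the other 2 patches of 28 days at 5.41 and, from 8 UMIs, 2.16. Outside the area Fcrls was at 11.5, 9.91, 8.09, 7.15 and 5.34 in the bands out to 2000 µm at 3 days, the last below the opposite side (-0.40, -0.57 to -0.24), and at 6.80, 7.45, 7.17, 7.72 and 5.57 at 28 days. The excess was therefore not confined to the area in either section.

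**Figure D4:**
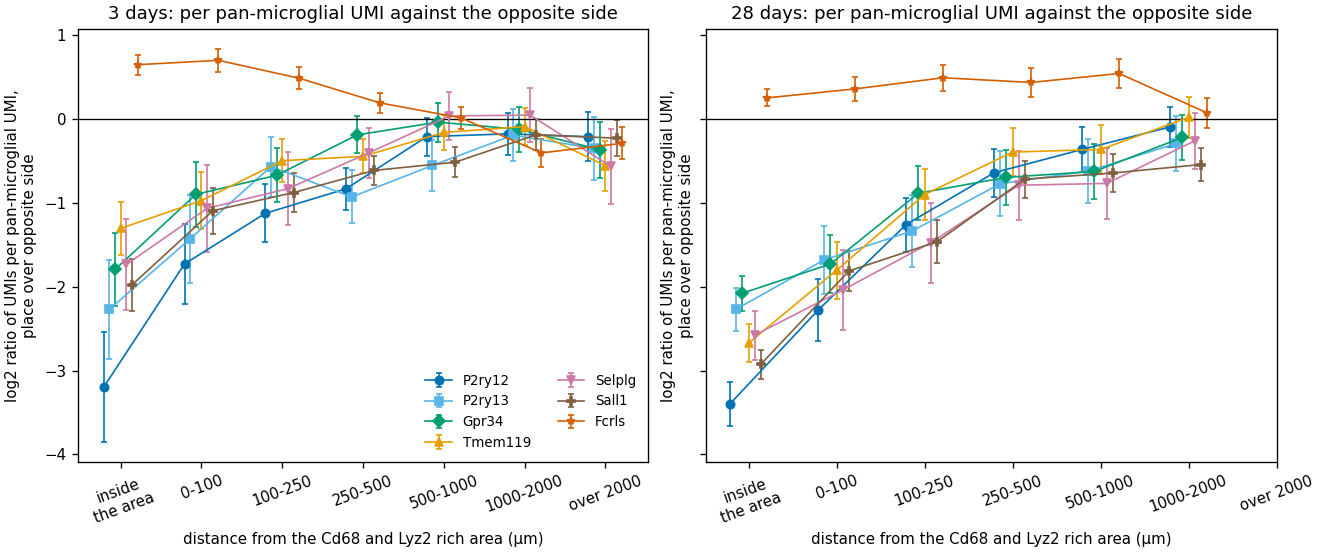
Log2 ratio, over the opposite side, of each gene's UMIs per UMI of the 10 pan-microglial genes, inside the area and in bands of distance from it in µm, at 3 days (left) and 28 days (right), with 95% intervals from a normal approximation as bars. The 6 genes other than Fcrls lie at -3.20 to -1.30 in the area at 3 days and at -3.40 to -2.08 at 28 days and lie nearer 0 at 1000 to 2000 µm, with some lower again beyond 2000 µm at 3 days (Tmem119 -0.56), while Fcrls is above 0 in the area at both times.

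Fcrls had the most UMIs of the 7 genes and was therefore set apart from their sum. The other 6 genes together had 16.6 and 18.1 UMIs per 100 pan-microglial UMIs on the opposite side. At 3 days they had 4.33 in the area and 7.39, 9.72, 11.3, 13.7 and 15.0 in the bands out to 2000 µm. At 28 days they had 2.80 in the area and 4.89, 7.70, 11.4, 12.3 and 15.0. The share was lower nearer the area in both sections, and within 250 µm it was lower at 28 days. Beyond 2000 µm at 3 days it was 13.

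The size of these values depended on the divisor. Against Csf1r alone, a divisor chosen after seeing the data, the 6 genes together were at -0.81 (-1.05 to -0.57) in the area at 3 days and -1.30 (-1.42 to -1.17) at 28 days, and Fcrls was at 1.77 (1.57 to 1.98) and 1.64 (1.51 to 1.77). P2ry12 was at -2.07 (-2.75 to -1.40) and -2.01 (-2.28 to -1.73), while Tmem119 at 3 days was no longer detectably lower (-0.18, -0.53 to 0.17). The sum of all 7 genes turned its direction, to 0.51 at 3 days and 0.032 (-0.07 to 0.14) at 28 days, from -0.62 and -1.36 against the 10 genes.

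Markers of other cells that could carry or dilute these genes moved with the area, and their part in the ratios was not tested. The 6 monocyte and macrophage markers measured, among them Arg1 and Msr1, were all at least 2-fold higher at 3 days and summed to 508 CPM in the area against 3.44 CPM on the opposite side, and at 28 days to 110 against 2.52 CPM, with none at 0. Border-associated macrophage markers summed to 155 against 13.5 CPM at 3 days and 16.7 against 8.37 CPM at 28 days. Neutrophil markers were at 112 and 105 CPM against 1.09 and 4.03 CPM, most of it S100a8 and S100a9, with the defining gene Retnlg at 0 at 3 days. T cell markers were at 7.69 and 17.4 CPM against 2.15 and 4.96 CPM. Platelets, which carry P2ry12 as well, had 4 of 4 markers at least 2-fold higher at 3 days, with 84.0 against 4.33 CPM. At 28 days these markers summed to 11.3 against 3.32 CPM, with 1 marker at 0. Pf4 was on both the platelet list and that of border-associated macrophages, so its UMIs entered both sums. The 4 fibroblast markers were at least 2-fold higher in both sections, with medians of 3.89 and 2.97. Of all genes, 23.5% were at least 2-fold higher in the area at 3 days and 20.1% at 28 days. The 4 neuronal markers were at least 2-fold lower, with medians of -2.07 and -2.47, and the share of all genes lower by as much is not given.

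Other genes of the microglial programme were taken from a list of 26 microglia-enriched genes that includes the 10 pan-microglial ones. Most were higher in the area, which phagocyte genes had placed. At 3 days 22 were at least 2-fold higher, with a median of 2.53, beside 23.5% of all genes. At 28 days 23 were, with a median of 3.67, beside 20.1% of all genes. Siglech and Crybb1, picked from this list after their values were seen, went the other way at 3 days, at -2.04 (-4.08 to -0.84) and -1.79 (-3.84 to -0.60) from 4 UMIs each. At 28 days Siglech was at 0.87 (0.52 to 1.18) and Crybb1 at -0.25 (-0.87 to 0.27). The genes of disease-associated microglia, a state described in degenerating tissue, had a median of 3.02 over the 11 genes compared at 3 days and 4.66 over 12 at 28 days, with Cst7, a protease inhibitor, highest at 28 days.

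On the opposite side the genes followed the tissue. Of 12 regions placed by marker genes that did not include the homeostatic genes, white matter and the meninges had the highest summed levels of the 7 genes, at 320 CPM (299 to 341) and 287 CPM (268 to 307) at 3 days and at 227 CPM (210 to 245) and 228 CPM (200 to 259) at 28 days, while the upper cortical layers had 104 CPM (100 to 109) and 99.8 CPM (92.6 to 107). At 28 days the ventricular wall was near white matter and the meninges, at 202 CPM from 154 UMIs. White matter exceeded the cortical layers by 1.64 (1.54 to 1.75) and 1.35 (1.21 to 1.48) on the log2 scale. The direction of this sum depended on the scale, since white matter bins held 350 and 371 UMIs against over 1100 in each cortical layer group. Per bin the ratio was -0.26 at 3 days and -0.50 at 28 days, while Sall1 stayed above 0 (0.39 and 0.12), as did Selplg at 3 days (0.34) and P2ry13 at 28 days (0.09).

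**Figure D5:**
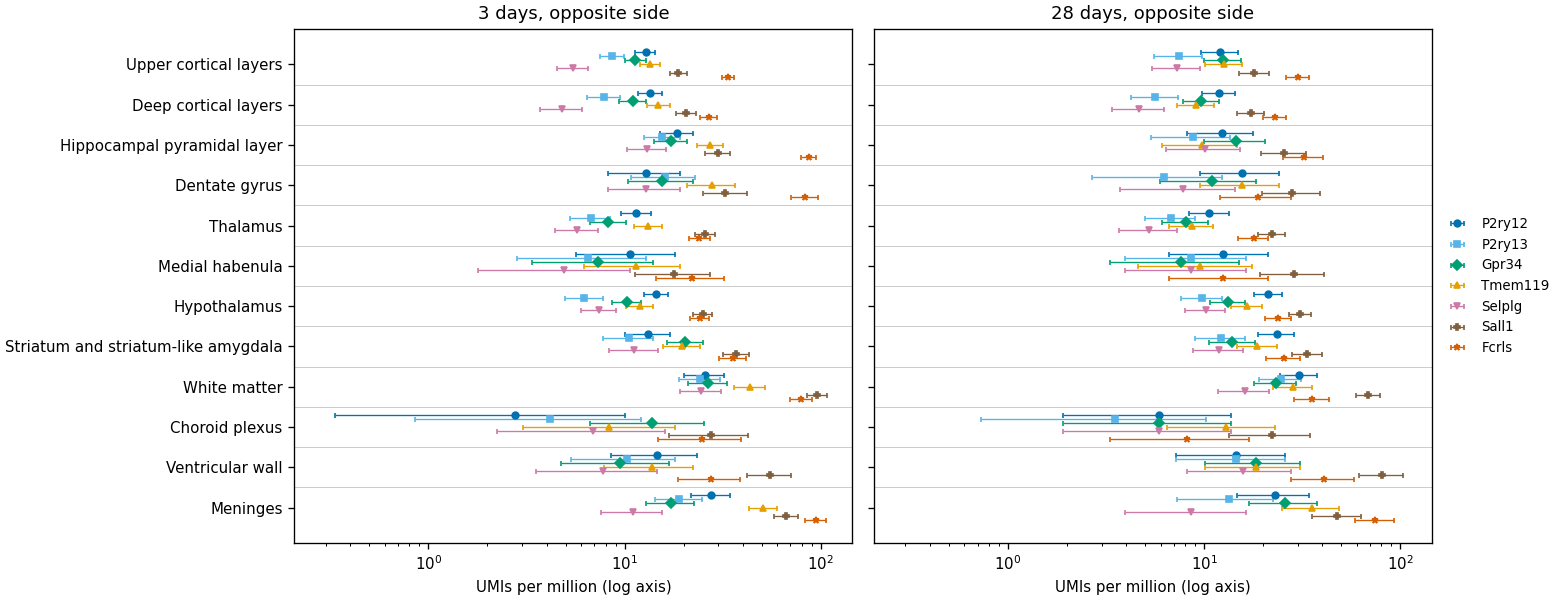
Level of each gene in CPM on a log axis in 12 marker-defined regions of the opposite side, at 3 days (left) and 28 days (right), with exact Poisson 95% intervals as bars. Sall1 is at 55 and 80.2 CPM in the ventricular wall, and P2ry12 in the choroid plexus is at 2.77 and 5.86 CPM.

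Sall1 was above the cortical layers in several regions. In white matter and the meninges other homeostatic genes were too. Tmem119 in the meninges was 1.87 (1.59 to 2.13) above the cortical layers at 3 days and 1.75 (1.18 to 2.25) at 28 days. At 3 days Sall1 was at 95.8 CPM in white matter (2.30, 2.09 to 2.50) and 66.5 CPM in the meninges (1.77, 1.53 to 2.00, and 0.70 per bin). At the ventricular wall, which is lined by ciliated ependymal cells, it was at 55 CPM at 3 days, 1.51 (1.10 to 1.87) above the cortical layers, and at 80.2 CPM at 28 days, 2.20 (1.77 to 2.59) above them. At 28 days white matter was at 68.7 CPM (1.97, 1.70 to 2.23) and the meninges at 47.7 CPM (1.45, 0.98 to 1.88). The ventricular wall was above the cortical layers per bin too, by 0.43 and 0.75. P2ry12 at the ventricular wall was not detectably different from cortex, at 0.20 (-0.63 to 0.85) and 0.33 (-0.75 to 1.14), nor was Gpr34, at -0.19 (-1.26 to 0.61) and 0.81 (-0.14 to 1.54). At 28 days P2ry13 (1.23, 0.13 to 2.07), Selplg (1.5, 0.44 to 2.31) and Fcrls (0.67, 0.08 to 1.18) were above cortex there as well, as were the pan-microglial genes (1.66, 1.55 to 1.76), with per-bin values of -0.21, 0.05, -0.77 and 0.21.

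The choroid plexus holds macrophages that differ from microglia of the parenchyma. The 7 genes together were not detectably different from the cortical layers there at 3 days (-0.20, -0.59 to 0.15) and were lower at 28 days (-0.46, -0.88 to -0.08). P2ry12 was at 2.77 CPM there at 3 days, -1.92 (-5.29 to -0.38) against the cortical layers, from 2 UMIs, and at 5.86 CPM at 28 days (-0.90, -2.67 to 0.22). Fcrls was at 24.9 CPM (-0.28, -1.08 to 0.35) and at 8.20 CPM (-1.56, -2.98 to -0.61). For Fcrls at 3 days the meninges (94.4 CPM, 83.6 to 106), the hippocampal pyramidal layer (86.8, 79.4 to 94.6), the dentate gyrus (82.9, 70.4 to 97.1) and white matter (79.5, 69.6 to 90.5) led and their intervals overlapped. Of the bins labelled hippocampal pyramidal layer, 52.8% lay in the ventral part of the section. Those above 3.2 mm on the row axis were at 130 CPM (118 to 144), above the meninges. The thalamus (24.1 CPM), hypothalamus (24.2 CPM) and medial habenula (22.0 CPM) were lowest. They were close to the choroid plexus (24.9 CPM, from 18 UMIs) and the ventricular wall (27.5 CPM, from 32 UMIs). At 28 days the medial habenula (12.4 CPM, 6.61 to 21.2) and thalamus (17.9 CPM, 14.9 to 21.3) were again low. Of the bins labelled medial habenula, a dorsal structure, 46.5% at 3 days and 29.8% at 28 days lay in the ventral part of the section, below 3.2 mm on the row axis, so its values are those of the label. Per 100 pan-microglial UMIs the 6 genes other than Fcrls ranged from 10.9 in the choroid plexus to 19.6 in the hypothalamus at 3 days and from 13.2 in the meninges to 20.8 in the dentate gyrus at 28 days, a narrower spread than between the area and the opposite side.

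The opposite side was not uniform. At 28 days the 6 genes other than Fcrls were at 62.0 CPM within 500 µm of the boundary and 103 CPM beyond 2000 µm, with 15.9 and 20 UMIs per 100 pan-microglial UMIs. At 3 days they were at 85.1 and 86.0 CPM, with 13.7 and 18.5. In the map of 3 days a bright band followed the dorsal hippocampus across the boundary, and bins labelled hippocampal pyramidal layer above 3.2 mm on the row axis were then examined, a choice made after seeing the data. In these 2068 bins all 7 genes were above the cortical layers of the same side at 3 days: P2ry12 by 0.67 (0.27 to 1.04), P2ry13 by 1.23 (0.80 to 1.62), Gpr34 by 1.04 (0.65 to 1.39), Tmem119 by 1.5 (1.20 to 1.78), Selplg by 1.63 (1.15 to 2.08), Sall1 by 0.80 (0.49 to 1.09) and Fcrls by 2.07 (1.90 to 2.23). They were higher per bin as well, by 0.90 to 2.30. The share of all genes above cortex in these bins is not given, so the count is a description. The pan-microglial genes were 1.61 (1.56 to 1.66) above cortex, the 6 genes other than Fcrls had 12.2 UMIs per 100 of them, and Fcrls had 10.4, near its 11.1 in the damaged area. In the dentate gyrus above the same row, with 1224 bins, P2ry12 (0.04, -0.70 to 0.63) and Gpr34 (0.61, -0.03 to 1.15) were not detectably above cortex, and the other 5 genes were. At 28 days the dorsal pyramidal layer held 1998 bins, with ratios from -0.19 (-0.99 to 0.46) for Tmem119 to 0.82 (0.04 to 1.49) for Selplg, and 16.6 UMIs of the 6 genes and 6.98 of Fcrls per 100 pan-microglial UMIs. In the dentate gyrus of 28 days the 6 genes had 20.5. The 12.2 of the dorsal pyramidal layer at 3 days was below the 16.6 of the whole opposite side. That value is an average, so some part of the side had to lie below it. At 28 days the 16.6 of the pyramidal layer rests on 157 UMIs and the 20.5 on 102, on either side of the 18.1 of the whole opposite side.

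Regions of the injured side outside the area were also compared with the same region of the opposite side. At 28 days Fcrls was highest against its counterpart in the thalamus, at 218 against 17.9 CPM (3.60, 3.34 to 3.89), where the pan-microglial genes were at 2.56 (2.50 to 2.63), with Gpr34 at 1.63 (1.15 to 2.13), and the other 5 genes between 0.32 and 0.96. The hypothalamus, at the base of the section, went the other way at 28 days: P2ry12 (-0.43), P2ry13 (-0.66), Gpr34 (-0.58), Tmem119 (-0.54), Selplg (-0.64) and Sall1 (-0.54) were lower on the injured side, with intervals below 0, while Fcrls was at 0.14 (-0.15 to 0.44) and the pan-microglial genes at -0.13 (-0.20 to -0.07). The share of all genes lower in this region at 28 days is not given, so these values are a description. At 3 days no homeostatic gene was detectably lower in the hypothalamus, with ratios from -0.27 to 0.33, and Fcrls was higher (0.31, 0.08 to 0.54). In the hippocampal pyramidal layer of 3 days, with 416 bins on the injured side, Fcrls was lower there, at 26.6 against 86.8 CPM (-1.63, -2.85 to -0.77). The bright dorsal bins described above, at 130 CPM, are part of that reference. The pan-microglial genes were higher on the injured side (0.65, 0.51 to 0.79). Of the other 6 genes, 5 had ratios from 0.31 to 1.12, and Selplg was at -1.57 (-7.47 to 0.37). The interval lay above 0 only for P2ry13, with a lower end of 0.0079, and held 0 for P2ry12, Tmem119, Gpr34, Sall1 and Selplg. Summed, these 6 genes were higher on the injured side (0.53, 0.11 to 0.90). In the upper cortical layers of 3 days P2ry12 was at 27.1 against 12.8 CPM (1.09, 0.65 to 1.5), the 7 genes had a median ratio of 1.02, and the pan-microglial genes were at 1.62 (1.56 to 1.68).

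At the level of single bins the genes were sparse. After each bin was thinned to 300 UMIs, 4.38% of opposite-side bins (4.23 to 4.53%) held a UMI of any of the 7 genes at 3 days and 3.84% (3.66 to 4.02%) at 28 days, against 16.7% (15.2 to 18.4%) and 28.6% (27.4 to 29.9%) of bins in the area. Shallower bins left out numbered 8918 and 9532 on the opposite side and 650 and 2126 in the area. Without thinning the shares were 10.3% and 7.99% on the opposite side and 25.1% and 37.5% in the area. Median depths before thinning were 960 and 789 UMIs on the opposite side against 593 and 493 in the area for the bins kept, so the higher shares in the area did not come with higher depth.

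UMIs of different homeostatic genes met in the same bins of the opposite side. Of 375 thinned bins with P2ry12 at 3 days, 17.6% (13.9 to 21.8%) also held another of the genes, against 3.88% of bins without P2ry12. For Tmem119 the shares were 19.3% and 3.75%, for P2ry13 21.6% and 4.01%, for Selplg 20.3% and 4.10%, and for Gpr34 14.2% and 3.94%. Sall1 had the lowest of these shares, 11.5% (9.29 to 14%) of 749 bins, against 3.37% of the rest. At 28 days the shares ran from 9.46% for Sall1 to 17.5% for Selplg, and in bins without the gene in question from 2.87% to 3.53%. In the area of 28 days the share was above that of the other bins, beyond its interval, for Selplg (44.2%, 30.5 to 58.7%, against 27.9%) and Fcrls (11.4%, 9.59 to 13.4%, against 8.42%). For P2ry12 (40.7%, 27.6 to 55%, against 27.9%), P2ry13 (34.7% against 27.6%), Gpr34 (31.1% against 27.1%), Sall1 (29.8% against 26.8%) and Tmem119 (26.8% against 27.6%) the interval held the share of the other bins. In the area of 3 days the share was again above that of the other bins, beyond its interval, for Selplg (43.8%, 19.8 to 70.1%, against 16.1%) and Fcrls (11.2%, 7.60 to 15.6%, against 5.13%), and for the other 5 genes, with 0 of 6 bins for P2ry12, the interval held it.

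Other genes were ranked by how far their level was higher in the opposite-side bins that held a homeostatic gene. Bins with a UMI of any of the 7 genes, 8320 at 3 days and 4303 at 28 days, were set against bins with none, over 11805 genes compared in both sections, whose median log2 ratio was 0.01 in each. The 10 genes with the highest value of the lower ratio included Abi3, Cd37, Pld4, Sting1, Csf3r, Bin2, Ptpn6, Cd300c2 and Rasal3, and the 10 had ratios from 2.10 to 2.60 at 3 days and from 2.10 to 2.30 at 28 days. Abi3, of a family of actin regulators, led with 2.39 and 2.30. The order depended on the bins and the minimum used: 3 of the 10 were among the first 10 when bins of the injured side were used, and 1 of the 10, Bin2, when a gene needed at least 500 UMIs, where Csf1r, Siglech, C1qa and C1qc joined it.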

How the data were processed

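Spatial expression was measured in 1 coronal section at each of 2 time points. The deposited tables hold raw UMI counts per gene and 16 µm bin, made by the authors with Space Ranger 4.0.1 per the file headers, with the mouse probe set and the mm10 build named in the submitters' processing notes, and without normalization. The sections share 84781 array positions, which are places on the array and not shared cells. The homeostatic genes and all gene lists were chosen with earlier results of these data known. One gene of the set is not analysed here. Values of some single genes and 1 further divisor are not reported here.

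Bins under 100 UMIs were left out (1.93% and 2.15%). UMIs were summed per place, scaled to CPM with exact Poisson intervals, and compared as log2 ratios with 0.5 UMI added, given for genes that had 20 or more UMIs in the places compared, with exact conditional binomial intervals at 95%. Intervals of ratios per pan-microglial UMI use a normal approximation on the log scale. Probes count molecules only where they bind, and the intervals leave out the spread between animals. Genes counted as 2-fold higher had a log2 ratio of at least 1. Regions were tiles of 64 µm assigned to the highest mean z score of region markers, if at least 0.5. The label of the hippocampal pyramidal layer also took bins at the base of the section (52.8% of its bins at 3 days, 10.4% at 28 days). Genes named were all homeostatic genes, those that place an area or form a divisor, at most 2 by UMIs and 2 by ratio of each other list, and the 10 most like the set, with exceptions stated. Doublet calling does not apply to bins. The ratios and intervals were run on simulated counts drawn independently, which is what the intervals assume. The run therefore cannot tell whether they hold where counts cluster in tissue. By comparison and size of change, the intervals held the true value for 86.7% to 98.9% of genes with a planted change. For the other genes this was 95.4% to 96.5%.

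Alternatives were other bin and gene minima, TMM scaling, UMIs per bin, moved boundaries, other ways to place the area, a region-weighted reference, other sums over the set, other region settings and other thinning. Leaving out the array edge, the largest patch alone a reference farther from the boundary and Csf1r alone as divisor were added after seeing the data. The tools were edgeR 4.0.16 (TMM only) in R 4.3.3 and, in Python 3.11.15, scipy 1.17.1, pandas 2.3.3, numpy 2.4.6 and matplotlib 3.10.9.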

Additional observations from a re-analysis of the deposited data

Results flagged for a closer look

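The differences that follow are between 1 section at 28 days and 1 at 3 days, so they were not tested, and the section, the animal and the time point cannot be told apart. They are given where the log2 ratio to the opposite side had another sign in each section and the interval of the difference left out 0.

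In the Cd68 and Lyz2 rich area, P2ry12 had a log2 ratio of -0.21 at 3 days and 1.13 at 28 days, a difference of 1.34 (0.67 to 2.16). Per bin both values were lower, at -1.08 and 0.56, and the ratio per pan-microglial UMI differed by -0.20 (-0.90 to 0.51).

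At 500 to 1000 µm from the area the ratio was above 0 at 3 days and below 0 at 28 days for all homeostatic genes other than Fcrls. The share of all measured genes with such a change of sign is not given, so this is a description. The intervals at 28 days held 0 for P2ry12 (-0.38 to 0.17), Tmem119 (-0.40 to 0.19) and P2ry13 (-0.77 to 0.03). The difference was -0.86 (-1.23 to -0.51) for P2ry12, -0.91 (-1.28 to -0.56) for Tmem119, -0.78 (-1.29 to -0.28) for P2ry13, -1.30 (-1.72 to -0.90) for Gpr34, -0.84 (-1.13 to -0.56) for Sall1 and -1.52 (-2.06 to -1.0) for Selplg. With the opposite side weighted to the regions of this band, Sall1 was below 0 in both sections, at -0.21 and -0.32. Per pan-microglial UMI the differences of Gpr34 (-0.59, -0.99 to -0.18) and Selplg (-0.81, -1.32 to -0.29) left out 0 and those of P2ry12 (-0.15), Tmem119 (-0.20), P2ry13 (-0.07) and Sall1 (-0.13) did not.

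At 1000 to 2000 µm the difference was -0.59 (-0.86 to -0.32) for Sall1 and -0.54 (-1.02 to -0.06) for Selplg. The sign was the same in both sections for Sall1 when region-weighted, at -0.26 and -0.48, and for Selplg per bin, at 0.38 and 0.03. For Fcrls it was 0.25 (0.0043 to 0.49), from -0.05 at 3 days to 0.20 at 28 days, and the region-weighted values were -0.027 and 0.026.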

How the results depend on the processing

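No paired analysis was possible because each time point had 1 section. With 1 section each, depth and counting error limit the single-gene values, and the area at 3 days is cut by the array edge. TMM scaling shifted all ratios of a comparison alike, by -0.16 to 0.03. Of the recomputed main values 171 stayed within their interval or within 1.5 times their count, 33 moved and 4 turned direction, and of those of single genes and bands 432 stayed, 77 moved and 5 turned. The causes of the moves were not tested.

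The median ratio of the area at 3 days was 0.32 in UMIs per bin, with 1 gene 2-fold higher and P2ry13 at -0.16, and 0.43 against the region-weighted opposite side, with 1 gene 2-fold higher, P2ry13 at -0.041 and Sall1 at -0.053. An area placed by Lyz2 alone left 2 genes 2-fold higher at 3 days. The median of 28 days was 1.38 per bin and 1.28 region-weighted. At 100 to 250 µm the median was 0.74 without a minimum patch at 3 days, and at 28 days 0.18 without it and 1.03 with a stricter threshold for the area. A reference from 100 bins beyond the boundary gave 0.33 for the injured side at 28 days.

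For the sum of the genes per pan-microglial UMI in the area, -0.62 at 3 days and -1.36 at 28 days, the stricter threshold gave -0.81 and -1.43, Csf1r alone as divisor 0.51 and 0.032 (and 0.36 and 0.051 within 100 µm), the sum without Fcrls -1.93 and -2.69, the median of single genes -1.79 and -2.58, and the far reference -0.72 and -1.45. White matter over cortex was -0.26 and -0.50 per bin and 1.75 and 1.60 without Fcrls, and at 28 days 1.60 with a region score of at least 1.0 and 1.61 without smoothing. Of the 10 genes most like the set, 3 stayed with bins of the injured side and 1 with at least 500 UMIs. The shares of bins with any of the genes were 10.3% and 7.99% on the opposite side and 25.1% and 37.5% in the area unthinned, and 5.90% and 4.91% and 23.8% and 36.3% when thinned to 500 UMIs.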
